A study of Mus musculus with 7 samples.

Results

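Postn, Cthrc1, Acta2, Tagln, Tnc, Cilp, Comp, Lox, Meox1 and Ccn2 are genes by which myofibroblasts and scar-forming fibroblasts of the heart are recognised. They were chosen by symbol among the 32285 genes of the deposited count tables, and each of the 10 symbols matched 1 row. Their levels are given in fibroblast-like and mural-like cells of mouse hearts as CPM, a gene's unique molecular identifiers (UMIs, 1 per captured transcript) scaled to the total of the class in each library. Of 36953 cells kept, 6450 were fibroblast-like and 600 mural-like.

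After an infarct, resting fibroblasts that carry the receptor Pdgfra divide and become myofibroblasts. These cells assemble contractile fibres and secrete and crosslink the collagen that replaces lost muscle. TGF-beta, released from a latent store in the matrix, drives much of this program through SMAD proteins, and mechanical load drives part of it through SRF and through YAP with TEAD. Mural cells, the pericytes and smooth muscle cells of vessel walls, share the contractile genes without being scar-forming cells.

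Droplet single-cell RNA sequencing had been applied to 7 libraries of digested hearts, in 6 groups, after myocardial infarction (MI) or a sham operation. WT 8 week MI and WT 8 week sham were adult C57BL6/J mice. Mertk KO P1 MI and Mertk KO P1 sham were neonatal mice labelled MerTK KO; MerTK is a receptor with which macrophages engulf dying cells. WT P1 MI (2 libraries) and WT P1 sham were neonatal C57BL6/J mice, and all other groups had 1 library. All 7 libraries came from tissue enriched for CD45+ leukocytes and recombined at 2 to 1, so fibroblast and mural cell numbers are not abundances in the heart. Mertk itself stood at 16.2 and 13.2 CPM of all cells in the libraries labelled Mertk KO P1 MI and Mertk KO P1 sham, against 10.8 and 6.54 in WT P1 MI and 10.5 in WT P1 sham. In macrophage-like cells it was at 11.3, from 8 UMIs, in Mertk KO P1 MI and 49.8 in Mertk KO P1 sham, against 54.1 and 26.8 in WT P1 MI and 50.4 in WT P1 sham. Counts near the 3′ end do not check a deletion elsewhere in the gene, so the knockout libraries are called by their labels throughout, and every direction drawn from them rests on those labels. The labels do not give the time after surgery, the number of hearts per library, the sex, or the part of Mertk that was deleted.

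Fibroblast-like cells numbered 184 in WT 8 week MI and 1566 in WT 8 week sham. Mertk KO P1 MI had 506 and Mertk KO P1 sham 676. WT P1 MI gave 222 and 2963 cells in its 2 libraries, and WT P1 sham gave 333. Their median depth was 3584.5 UMIs in WT 8 week MI and ranged from 8669.5 to 17768.5 in the other 6 libraries. All 8 fibroblast markers, Pdgfra, Tcf21, Dcn, Lum, Dpt, Col1a1, Col1a2 and Mfap4, were detected in the class in every library. Pdgfra stood at 108 CPM in WT 8 week MI and 239.7 in WT 8 week sham. It was at 143 in Mertk KO P1 MI and 183 in Mertk KO P1 sham, with 253.5, 169.8 and 241 in WT P1 MI replicates 1 and 2 and WT P1 sham. At least 1 Pdgfra UMI was seen in 31.5% of the class in WT 8 week MI, against 87.3% in WT 8 week sham. The share was 69.0% in Mertk KO P1 MI, 85.7% in Mertk KO P1 sham, with 89.6% and 73.1% in WT P1 MI, and 90.7% in WT P1 sham. Results are given for the class, and again for its Pdgfra-positive cells where these differed.

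Several libraries stood apart. WT 8 week MI was the shallowest. Its cell barcodes overlapped those of each other library by at most 2, and over all pairs of libraries at most 41 barcodes, and at most 0.613% of the smaller library, were shared. Within fibroblast-like cells, the 6 epicardial markers summed to 397 CPM in WT 8 week MI and to between 1.55 and 35.1 in the other libraries. The 1.55 was that of WT P1 sham, against 35.1 and 9.71 in WT P1 MI and 27.9 in Mertk KO P1 sham. The 7 macrophage markers summed to 460 in WT 8 week MI and to between 5.67 and 20.7 elsewhere. No marker of either list was at 0 in WT 8 week MI. Neutrophil markers (7 genes) summed to 337 in Mertk KO P1 MI, 187 in WT P1 MI replicate 2 and 4.80 in replicate 1. A cluster of 99 Mertk KO P1 MI cells and 5 of WT P1 MI replicate 2 carried fibroblast and neutrophil markers together, and it was set aside. Xist, from the inactive X chromosome, was at 0 in WT 8 week MI and 0.0531 in WT 8 week sham and between 117 and 980 in the P1 libraries, whereas Y-linked Ddx3y was at 0 only in Mertk KO P1 sham. The part of depth, other cells and sex in the results below was not tested.

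Promoter sequence is shown for Acta2 and Postn, a contractile and a matrix member of the set whose levels did not follow each other across the libraries. RefSeq promoter windows (GRCm38.p6) matched 4 of the 10 members: Acta2, Postn, Tnc and Cilp. Each window was read over the 250 bases before the start. Motifs searched were the CArG box bound by SRF, with at most 1 base of its A/T centre replaced, which reads alike on both strands, the TEAD-type motif CATTCC on both strands, and TATAAA on the gene's strand. These matches do not overlap one another in Acta2. CArG-like matches, a TEAD-type match and TATAAA were present in 8.59%, 12.6% and 7.59% of 32851 such windows. Acta2 held 2 CArG-like matches, 84 and 34 bases before the start, and 1 match to the TEAD-type motif 146 bases before it. These runs lie on the minus strand, in sequence that GENCODE vM21 places within a 5′ exon starting farther upstream, and the capitals mark the motif.
Acta2, TEAD-type, chr19:34255502-34255531: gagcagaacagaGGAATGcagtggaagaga
Acta2, CArG-like, chr19:34255438-34255467: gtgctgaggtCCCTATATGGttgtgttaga
Acta2, CArG-like, chr19:34255388-34255417: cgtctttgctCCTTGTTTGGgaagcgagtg
Postn held neither kind of match in its window, and only TATAAA, in capitals, 26 bases before the start on the plus strand.
Postn, chr3:54360857-54361106: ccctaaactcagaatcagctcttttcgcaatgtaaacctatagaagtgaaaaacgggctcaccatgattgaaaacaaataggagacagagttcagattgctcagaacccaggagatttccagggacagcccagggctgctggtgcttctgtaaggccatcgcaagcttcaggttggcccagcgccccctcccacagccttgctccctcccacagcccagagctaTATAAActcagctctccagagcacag
Neither Tnc nor Cilp held a CArG-like or TEAD-type match. Tnc held TATAAA 126 bases before the start, and Cilp held no TATAAA.

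The 10 genes lie on 9 chromosomes of GRCm38. Acta2 is on chromosome 19 (34241090 to 34255590), Postn on chromosome 3 (54361109 to 54391037), Cthrc1 on chromosome 15 (39076932 to 39087121) and Tnc on chromosome 4 (63959785 to 64047015). Tagln (45929619 to 45936058) and Cilp (65265180 to 65280605) are both on chromosome 9. Comp is on chromosome 8 (70373558 to 70382066), Lox on chromosome 18 (52516067 to 52529867), Meox1 on chromosome 11 (101877510 to 101894374) and Ccn2 on chromosome 10 (24595442 to 24598683). The 3′ tags count transcripts near their ends, so counts say nothing of isoforms.

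**Figure D1:**
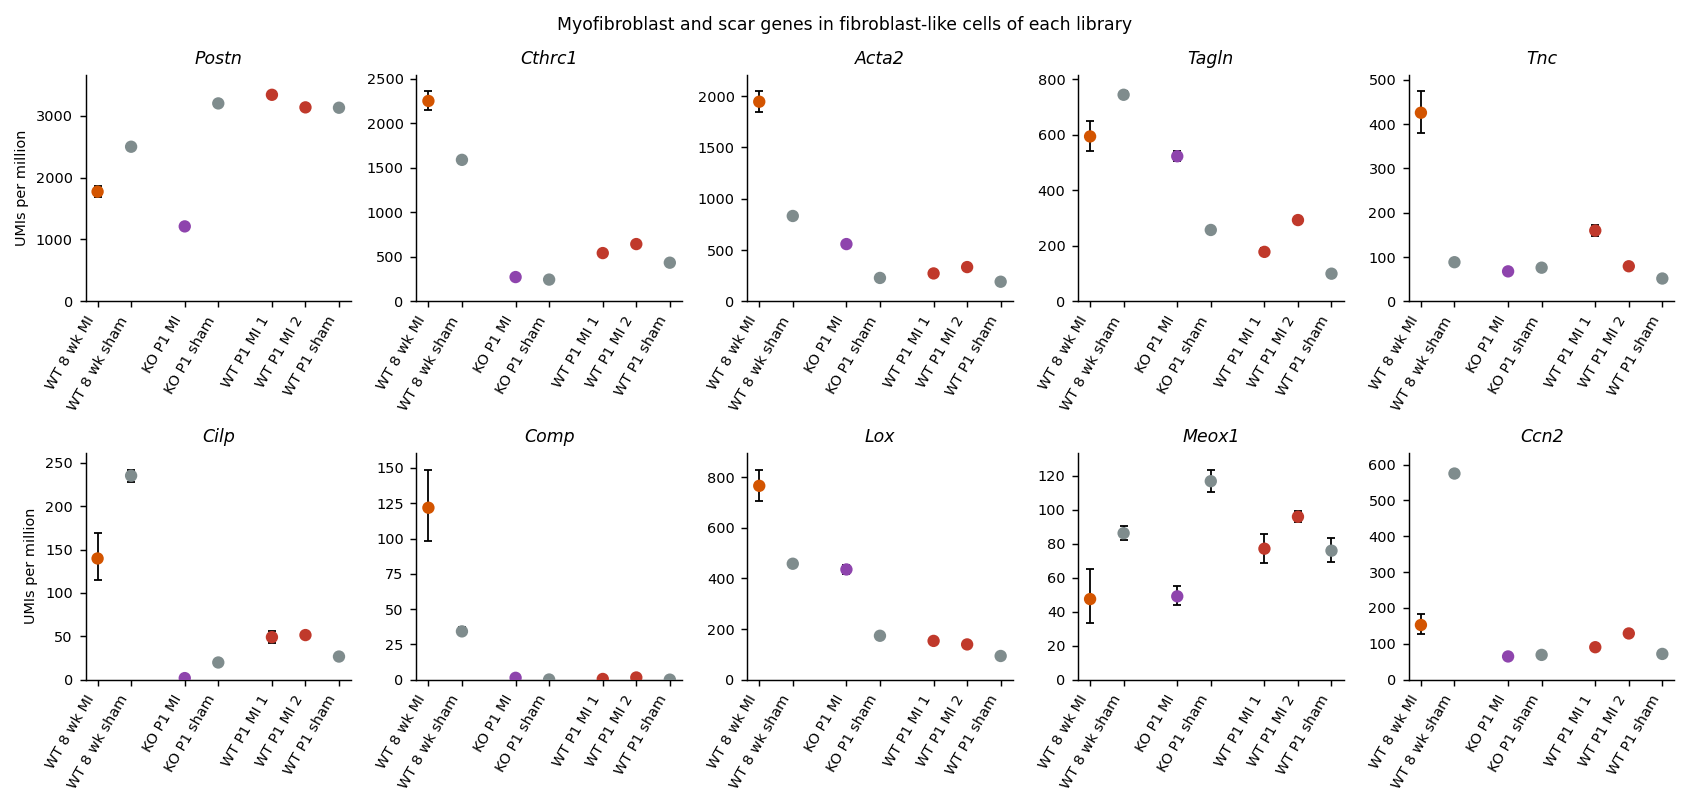
CPM (y axis, linear, from 0) of the 10 genes in fibroblast-like cells of each library (x axis); points are libraries and bars are exact 95% Poisson intervals, which cover counting error only. Acta2, Cthrc1, Tnc, Comp and Lox stood highest in WT 8 week MI, whereas Postn stood lowest in Mertk KO P1 MI, at 1211.

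Adult and neonatal infarcts differed in most members. In WT 8 week MI, 7 of the 10 genes were higher than in WT P1 MI and none was lower, whereas of the 13578 genes tested 21.9% were called, 9.75% higher and 12.1% lower. A gene was called at an adjusted p under 0.05 and at least a 2-fold change in edgeR's quasi-likelihood test. The contractile gene Acta2, smooth muscle alpha-actin, led the change among abundant members, together with Lox and Cthrc1. Postn, Meox1 and Ccn2 were not called. The 10 members had a median log2 fold change of 1.63, against −0.20 over all genes tested.

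Among the contractile members, Acta2 stood at 1945 CPM in WT 8 week MI, against 272 and 334 in the WT P1 MI libraries. Its adult infarct value was above both, a log2 fold change of 2.63 ± 0.48 (SE, edgeR adjusted p = 1.58e-06). Tagln, an actin-binding protein also called SM22, was at 595 in WT 8 week MI and at 178 and 293 in WT P1 MI. Its log2 fold change was 1.27 ± 0.45 (edgeR adjusted p = 0.027), and this call was lost with no doublet removal (edgeR adjusted p = 0.0969) and with no filter on low counts (edgeR adjusted p = 0.0771).

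Of the secreted matrix members, Cthrc1, a glycoprotein that marks collagen-producing fibroblasts of injured hearts, was at 2252 CPM in WT 8 week MI, against 542 and 644 in WT P1 MI. The log2 fold change was 1.88 ± 0.51 (edgeR adjusted p = 0.00223). Tnc, an anti-adhesive glycoprotein of early wound matrix, was at 425.5 in WT 8 week MI and at 160 and 79.2 in WT P1 MI (1.83 ± 0.37, edgeR adjusted p = 2.31e-05). The WT P1 MI libraries differed 2-fold from each other in Tnc, and the adult value was above both. Comp, a cartilage matrix protein made by late scar fibroblasts, had 95 UMIs in WT 8 week MI, against 2 and 53 in WT P1 MI. These were 122 CPM in WT 8 week MI and 0.480 and 1.53 CPM in WT P1 MI, with a log2 fold change of 6.45 ± 0.41 (edgeR adjusted p = 4.42e-52), which was 7.99 without WT P1 MI replicate 2. Postn, periostin, a matricellular protein that organises collagen, went the other way without passing the test: 1772 in WT 8 week MI, against 3337 and 3134 in WT P1 MI (−0.91 ± 0.65, edgeR adjusted p = 0.33).

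Lox, the enzyme that crosslinks collagen, was at 766 CPM in WT 8 week MI, against 153 and 139 in WT P1 MI. The log2 fold change was 2.35 ± 0.43 (edgeR adjusted p = 1.85e-06). Cilp, a matrix protein that antagonises TGF-beta, was at 140 in WT 8 week MI and at 49.0 and 51.4 in WT P1 MI (1.43 ± 0.36, edgeR adjusted p = 0.00103). Among Pdgfra-positive cells only, Cilp turned round: it was 27.6 CPM in the 58 such cells of WT 8 week MI, from 8 UMIs, against 49.3 and 44.4 in WT P1 MI (−0.88, edgeR adjusted p = 0.321). The other 6 genes were also called in Pdgfra-positive cells. Postn (−1.67, edgeR adjusted p = 0.047) and Meox1 (−2.39, edgeR adjusted p = 0.00212) were then called lower, Meox1 from 5 UMIs in WT 8 week MI. Meox1, a homeobox factor that drives fibroblast activation, was at 47.4 over the whole class in WT 8 week MI and at 77.1 and 95.9 in WT P1 MI. Ccn2, connective tissue growth factor, a target of YAP and TGF-beta, was at 152.5 in WT 8 week MI and at 90.5 and 129 in WT P1 MI.

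**Figure D2:**
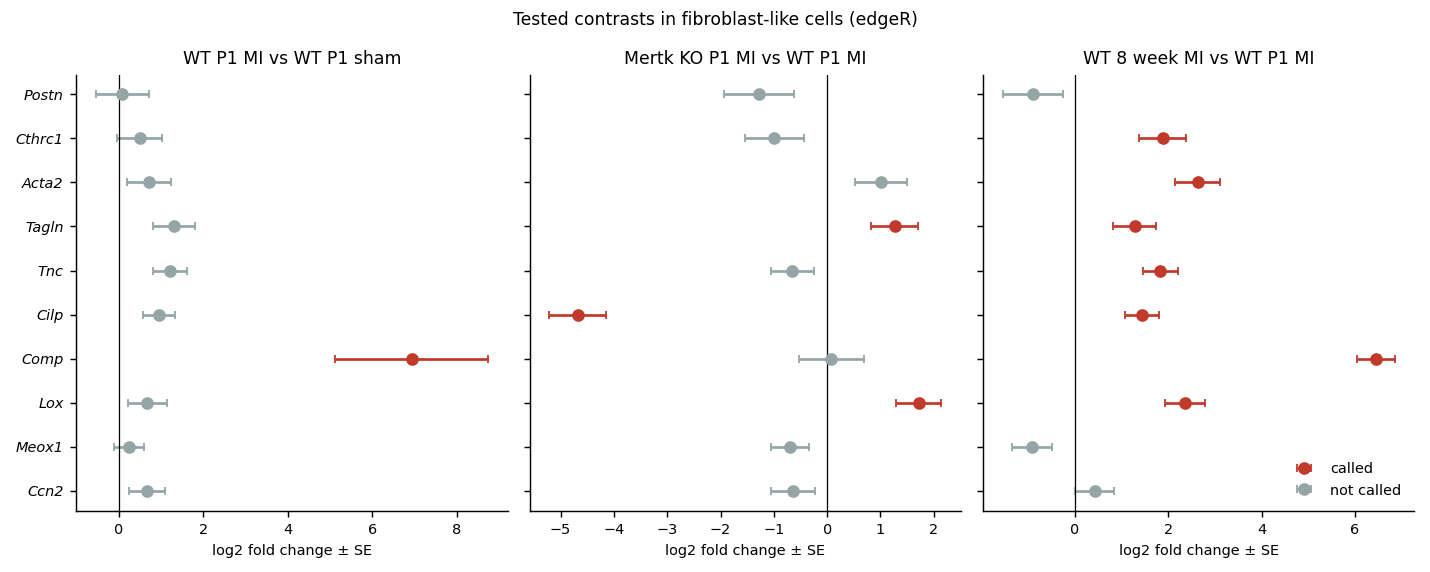
Log2 fold changes ± SE (x axis) of the 10 genes (y axis) in fibroblast-like cells for the 3 tested contrasts, from edgeR; red points passed the adjusted p and 2-fold thresholds. WT 8 week MI against WT P1 MI holds 7 red points, all to the right of 0; the Comp point against WT P1 sham is fitted against a library with 0 UMIs and is no measure of size.

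The adult infarct was then set against its own sham, 1 library against 1, with no test. Acta2 was at 1945 CPM in WT 8 week MI and 832 in WT 8 week sham, a ratio of 2.34. Tnc was 4.82-fold higher in WT 8 week MI (425.5, against 88.3) and Comp 3.56-fold higher (122, against 34.2). Cthrc1 was at 2252 in WT 8 week MI and 1590 in WT 8 week sham, and Lox at 766 in WT 8 week MI and 458 in WT 8 week sham. Ccn2 was 3.77-fold higher in WT 8 week sham, at 152.5 in WT 8 week MI against 575 in WT 8 week sham. Postn was at 1772 in WT 8 week MI and 2498 in WT 8 week sham, Tagln at 595 in WT 8 week MI and 745 in WT 8 week sham, Cilp at 140 in WT 8 week MI and 235 in WT 8 week sham, and Meox1 at 47.4 in WT 8 week MI and 86.2 in WT 8 week sham. Over the whole class, 3 members were at least 2-fold higher in WT 8 week MI and 1 lower, where 19.8% of genes were higher by as much and 18.2% lower. Pdgfra-positive cells numbered 58 in WT 8 week MI and 1367 in WT 8 week sham. In these, Postn was at 1090 in WT 8 week MI, against 2352 in WT 8 week sham. Cilp was at 27.6, against 239, and Meox1 at 17.25, against 89.1, from 8 and 5 UMIs in WT 8 week MI. Comp was at 55.2, against 30.5. Acta2 (1583, against 638) and Tnc (441.5, against 81.8) stayed higher in WT 8 week MI.

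These sums hide a mixture in the adult sham heart. Its fibroblast-like cells fell mainly into 2 clusters, which were found without using the 10 genes. Cluster 10, led by Gsn and Cxcl14, held 1175 of the 1566 cells (75.0%), and the members were low there: Postn 378, Acta2 38.9, Cthrc1 17.2 and Tnc 3.04 CPM. Cluster 24, led by Ccn5, Sfrp2 and Cthrc1, held 337 cells (21.5%). There Postn stood at 4817, Cthrc1 at 3388, Acta2 at 1662, Tagln at 1442, Ccn2 at 984 and Lox at 915. In WT 8 week MI, cluster 24 held 181 of 184 cells (98.4%), so it was nearly the whole class.

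Within cluster 24, WT 8 week MI had less of several members than WT 8 week sham. Median depth in this cluster was 3599 UMIs in WT 8 week MI and 23660 in WT 8 week sham. The part of this gap in the levels was not tested, nor was that of macrophage and epicardial transcripts in WT 8 week MI. Postn was at 1787 CPM in WT 8 week MI, against 4817 in WT 8 week sham. Ccn2 was at 153, against 984, Tagln at 594, against 1442, and Cthrc1 at 2268, against 3388. Acta2 and Lox lay closer, at 1963 and 771 in WT 8 week MI and 1662 and 915 in WT 8 week sham. Tnc (422, against 179), Comp (123, against 26.1) and Timp1, an inhibitor of matrix metalloproteinases (4085, against 1220), were higher in WT 8 week MI. Means with equal weight for each cell, rather than each UMI, were taken over the whole class and not within cluster 24. By these, Postn averaged 2179 in WT 8 week MI and 1317 in WT 8 week sham. Tagln averaged 522 in WT 8 week MI and 324 in WT 8 week sham, and Cilp 230 in WT 8 week MI and 195 in WT 8 week sham. For these 3 genes the direction of the adult difference over the whole class thus depended on how cells were weighted.

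Shares of cells with a UMI were compared at equal depth. After each cell was thinned to 1500 UMIs, Postn was detected in 57.5% of 174 cells of WT 8 week MI, against 30.5% of 1549 in WT 8 week sham. Before thinning the shares were 60.9% in WT 8 week MI and 41.7% in WT 8 week sham. Acta2 was detected in 53.4% of the thinned WT 8 week MI cells and 12.4% of the WT 8 week sham cells, and Cthrc1 in 70.7% of WT 8 week MI cells and 21.2% of WT 8 week sham cells. In B-cell-like and T- or NK-cell-like cells, which should lack these genes, Postn reached at most 5.26% in any library and Acta2 at most 2.61%. Cthrc1 reached at most 7.14%, which was 1 of the 14 B-cell-like cells of WT 8 week MI. That library had only 14 and 4 cells of these classes. At least 5 of the 10 members were seen together in 39.1% of WT 8 week MI cells and 13.4% of WT 8 week sham cells. None was seen in 11.5% of WT 8 week MI cells and 45.3% of WT 8 week sham cells. In WT 8 week sham, Postn was found in 92.4% of cells with Cthrc1 and in 13.8% of cells without it. Within 1 library, depth and cell type are shared by such pairs, so this is a description only.

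**Figure D3:**
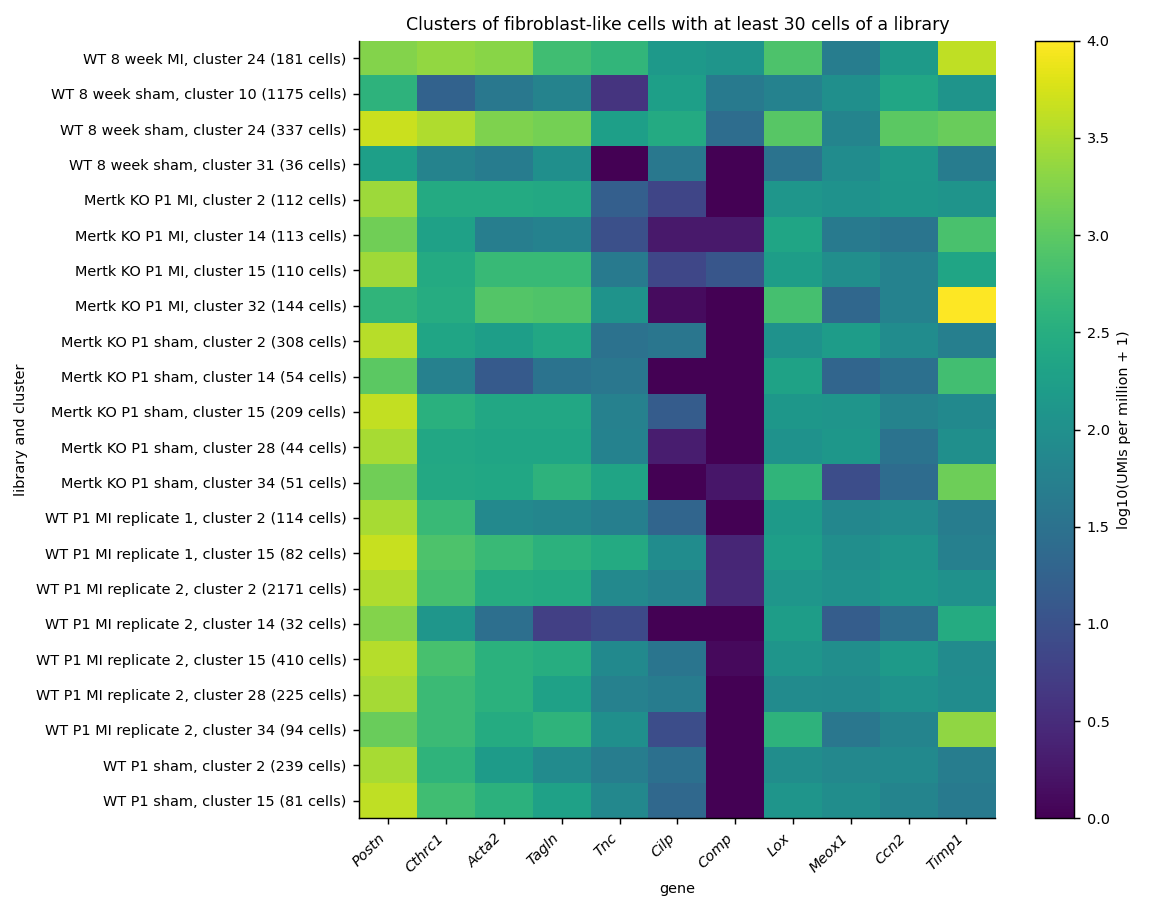
Levels of the 10 genes and of Timp1 (x axis) in each cluster of fibroblast-like cells with at least 30 cells of a library (y axis), as log10(CPM + 1), with lighter colours higher. WT 8 week sham splits into cluster 10 (Postn 378) and cluster 24 (Postn 4817), and cluster 32 of Mertk KO P1 MI pairs low Postn (407) with high Timp1 (11060).

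In the neonatal wild-type heart, most of these genes were not called between infarct and sham. Of the 10 members, 1, Comp, was called higher in WT P1 MI than in WT P1 sham and none lower, where 1.11% of genes were called, 0.957% higher and 0.155% lower. Comp had 2 and 53 UMIs in the WT P1 MI libraries and 0 in WT P1 sham, where 0 allows up to 0.515 CPM. The level in replicate 1 (0.480 CPM) was below that limit. Comp lost its call with DESeq2 (adjusted p = 1), without doublet removal (edgeR adjusted p = 0.375) and in Pdgfra-positive cells (edgeR adjusted p = 0.541). The median log2 fold change of the members was 0.69, against 0.01 over all genes tested.

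Postn was abundant in all 3 libraries, at 3337 and 3134 CPM in WT P1 MI and 3128 in WT P1 sham, a log2 fold change of 0.08 ± 0.63 (SE, edgeR adjusted p = 1). After thinning it was detected in 91.4% and 93.5% of WT P1 MI cells and in 96.1% of WT P1 sham cells. Cthrc1 was at 542 and 644 in WT P1 MI and 434 in WT P1 sham. Acta2 was at 272 and 334 in WT P1 MI and 191 in WT P1 sham (0.71 ± 0.52, edgeR adjusted p = 1). After thinning, its detected share in WT P1 sham lay between the 11.3% and 21.0% of the WT P1 MI libraries. Lox was at 153 and 139 in WT P1 MI and 93.6 in WT P1 sham, and Ccn2 at 90.5 and 129 in WT P1 MI and 71.8 in WT P1 sham. Meox1 (77.1 and 95.9, against 75.9) and Cilp (49.0 and 51.4, against 26.6) were not called either.

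For Tagln and Tnc the call depended on the cells taken, as it did for Comp. Tagln was at 178 and 293 CPM in WT P1 MI and 99.8 in WT P1 sham (1.30 ± 0.49, edgeR adjusted p = 0.352). In Pdgfra-positive cells it was at 141 and 232 in WT P1 MI and 62.7 in WT P1 sham, and was called higher (1.63, edgeR adjusted p = 0.0309). Tnc was at 160 and 79.2 in WT P1 MI and 51.5 in WT P1 sham (1.22 ± 0.41, edgeR adjusted p = 0.163), and its log2 fold change was 0.73 without replicate 1. In Pdgfra-positive cells it was at 165 and 77.2 in WT P1 MI and 49.5 in WT P1 sham (1.29, edgeR adjusted p = 0.0488).

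The knockout infarct differed from the wild-type neonatal infarct in 3 members. Lox and Tagln were higher in Mertk KO P1 MI relative to WT P1 MI and Cilp lower, where 9.22% of genes were called, 4.91% higher and 4.31% lower. Lox was at 436 CPM in Mertk KO P1 MI, against 153 and 139 in WT P1 MI (1.71 ± 0.43, edgeR adjusted p = 0.00193). Tagln was at 523, against 178 and 293 (1.26 ± 0.45, edgeR adjusted p = 0.0486). The Tagln call was lost in 7 of 11 alternatives run, with adjusted p up to 0.171, among them DESeq2 (adjusted p = 0.103) and the class with the mixed cluster added (edgeR adjusted p = 0.0883). Cilp had 11 UMIs in Mertk KO P1 MI, or 1.78 CPM, against 49.0 and 51.4 in WT P1 MI (−4.68 ± 0.53, edgeR adjusted p = 6.34e-16). Before thinning, Cilp was seen in 1.98% of Mertk KO P1 MI cells and in 18.5% and 13.5% of WT P1 MI cells. The members' median log2 fold change was −0.65, against −0.04 over all genes tested.

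Postn was at 1211 CPM in Mertk KO P1 MI, against 3337 and 3134 in WT P1 MI. Although it lay below both, the edgeR test did not call it (−1.28 ± 0.66, edgeR adjusted p = 0.238), and DESeq2 did (−1.26, adjusted p = 0.0133). Acta2 was at 558 in Mertk KO P1 MI, against 272 and 334 in WT P1 MI (1.01 ± 0.49, edgeR adjusted p = 0.192). It was called in Pdgfra-positive cells (1.21, edgeR adjusted p = 0.0422). Cthrc1 (273, against 542 and 644), Tnc (67.7, against 160 and 79.2), Meox1 (49.0, against 77.1 and 95.9) and Ccn2 (64.7, against 90.5 and 129) were not called. Each of these 4 lay below both WT P1 MI libraries. Comp had 8 UMIs in Mertk KO P1 MI (0.08 ± 0.61, edgeR adjusted p = 0.974). It was called higher with the mixed cluster added (1.67, edgeR adjusted p = 0.00328) and with the members used in clustering (1.84, edgeR adjusted p = 0.00101). Without WT P1 MI replicate 2 its log2 fold change was 1.58.

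Set against its own sham without a test, Mertk KO P1 MI had 2.44-fold more Acta2 (558 CPM, against 228 in Mertk KO P1 sham). Lox was 2.51-fold higher in Mertk KO P1 MI (436, against 173.5), and Tagln 2.03-fold higher (523, against 257). Postn was 2.64-fold higher in Mertk KO P1 sham, at 1211 in Mertk KO P1 MI against 3198 in Mertk KO P1 sham. Meox1 was at 49.0 in Mertk KO P1 MI and 117 in Mertk KO P1 sham, and Cilp at 1.78 in Mertk KO P1 MI and 19.8 in Mertk KO P1 sham. Comp rested on 8 UMIs in Mertk KO P1 MI and 1 in Mertk KO P1 sham. Cthrc1 (273, against 244), Tnc (67.7, against 76.0) and Ccn2 (64.7, against 69.1) had log2 ratios of 0.16, −0.17 and −0.09. Of the 10 members, 4 were at least 2-fold higher and 3 at least 2-fold lower, where 5.89% and 11.5% of genes were. With the mixed cluster of fibroblast and neutrophil markers added, Cthrc1 moved from a log2 ratio of 0.16 to −0.15, and the other members kept their direction.

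Clusters again differed between the libraries. Cluster 32, led by Timp1, Hp and Cxcl5, held 144 Mertk KO P1 MI cells (28.5% of the class), 8 of Mertk KO P1 sham (1.18%), 14 of WT P1 MI replicate 2 (0.473%) and none of WT P1 MI replicate 1 or WT P1 sham. In its Mertk KO P1 MI cells Acta2 stood at 857 CPM, Tagln at 790, Lox at 671 and Postn at 407. Cluster 32 cells were deep, at a median of 20667 UMIs over all libraries, against 8669.5 in the whole class of Mertk KO P1 MI. Deep cells weigh more in the CPM of a class than their share of cells. In cluster 2, led by Ptn, Nrk and Itm2a and shared by all P1 libraries, Postn was at 2592 in Mertk KO P1 MI, 3770 in Mertk KO P1 sham, with 2972 and 3304 in WT P1 MI and 2955 in WT P1 sham. Acta2 in cluster 2 was at 274 in Mertk KO P1 MI, 174.5 in Mertk KO P1 sham, with 76.2 and 299 in WT P1 MI and 158 in WT P1 sham. Lox in cluster 2 was at 123 in Mertk KO P1 MI, against 151 and 124 in WT P1 MI. Cilp in cluster 2 was at 5.93 in Mertk KO P1 MI, 36.3 in Mertk KO P1 sham, with 18.9 and 59.2 in WT P1 MI and 29.3 in WT P1 sham. In cluster 15, led by Itih5 and Aspn, Postn was at 2705 in Mertk KO P1 MI and 4217 in Mertk KO P1 sham. Lox in cluster 15 was at 168 in Mertk KO P1 MI, against 171 and 120 in WT P1 MI. Over the whole class, with each cell thinned to 1500 UMIs, Lox was detected in 30.2% of Mertk KO P1 MI cells. The WT P1 MI shares were 14.9% and 15.8%. Tagln was detected in 24.0% of Mertk KO P1 MI cells, against 14.0% and 17.0%, and Acta2 in 23.8%, against 11.3% and 21.0%.

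Whether infarction moved a member differently between genotypes or ages was tested directly. Between genotypes, only Cilp was called, with a smaller infarct-over-sham ratio in Mertk KO than in WT at P1 (−4.19 ± 0.68, SE, edgeR adjusted p = 5.52e-07). Over all genes 0.803% were called in that test, 0.236% higher and 0.567% lower. Postn (−1.25 ± 0.96), Acta2 (0.81 ± 0.76), Lox (0.89 ± 0.68) and Tagln (−0.04 ± 0.71) each had an adjusted p of 1 in edgeR. Between ages, Ccn2 (−2.71 ± 0.65, edgeR adjusted p = 0.00174) and Cilp (−1.84 ± 0.56, edgeR adjusted p = 0.0222) had a smaller infarct-over-sham ratio at 8 weeks than at P1, where 6.67% of genes were called, 1.85% higher and 4.82% lower. The Ccn2 call was lost without doublet removal (edgeR adjusted p = 0.053). The Cilp call was lost without doublet removal (edgeR adjusted p = 0.116), with DESeq2 (adjusted p = 0.146) and without cells holding an epicardial marker UMI (edgeR adjusted p = 0.111). Acta2 (0.39 ± 0.76, edgeR adjusted p = 0.847) was not called, so the higher adult level was not shown to be a larger response to infarction. In the shams Acta2 was at 832 in WT 8 week sham and 191 in WT P1 sham, and Lox at 458 in WT 8 week sham and 93.6 in WT P1 sham.

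Genes of the surrounding pathways were counted in lists, each given with the median log2 fold change of its tested genes and set beside all genes tested. The lists were chosen with earlier results of these data known, so their counts describe the lists and are not independent tests. In WT 8 week MI relative to WT P1 MI, 9.75% of all genes were higher and 12.1% lower (median −0.20). The shares for Mertk KO P1 MI relative to WT P1 MI were 4.91% and 4.31% (median −0.04), and for WT P1 MI against WT P1 sham 0.957% and 0.155% (0.01). They were 1.85% and 4.82% in the test between ages (median −0.26) and 0.236% and 0.567% in that between genotypes (−0.05). Among 24 contractile and stress-fibre genes, 9 were higher and 1 lower in WT 8 week MI than in WT P1 MI (median 0.84). Cnn1, smooth muscle calponin, was at 92.3 CPM in WT 8 week MI and at 5.28 and 2.31 in WT P1 MI (4.79 ± 0.40, edgeR adjusted p = 1.17e-29), and Actg2, the enteric smooth muscle actin, at 85.9, against 12.0 and 8.01. In Mertk KO P1 MI relative to WT P1 MI, 2 of the 24 were higher, Tpm2 (474, against 189 and 245) and Cnn1 (6.96, against 5.28 and 2.31). That count is near the share over all genes (median 0.50). None of the 24 was called in WT P1 MI against WT P1 sham. In the age and the genotype test none was called either.

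Of 18 genes that TGF-beta induces in fibroblasts, 5 were higher in WT P1 MI than in WT P1 sham and none lower (median 0.79). Over all genes 0.957% were higher and 0.155% lower. That contrast held 151 calls over all genes, but 16 with DESeq2 and 22 without doublet removal. Whether the 5 list genes kept their calls in those settings is not given here. Scx, a tendon and matrix factor, was at 3.12 and 11.8 CPM in WT P1 MI and 0.343 in WT P1 sham. Thbs4, a thrombospondin, was at 17.3 and 37.7 in WT P1 MI and 3.09 in WT P1 sham, and Lrrc15, a marker of TGF-beta-driven fibroblasts, at 26.6 and 3.61, against 1.89. Of the same 18, 3 were higher and 5 lower in Mertk KO P1 MI relative to WT P1 MI (median −0.33). The shares over all genes were 4.91% and 4.31%. Timp1 was at 5964 in Mertk KO P1 MI, against 70.8 and 299 in WT P1 MI (5.10 ± 0.60, edgeR adjusted p = 1.25e-14), and Scx at 1.62, against 3.12 and 11.8. Of the 18, 7 were higher and 2 lower in WT 8 week MI than in WT P1 MI, Timp1 (4060, against 70.8 and 299) among the higher (median 1.04). The shares over all genes there were 9.75% and 12.1%. In the genotype test 3 of the 18 were called lower, Scx and Lrrc15 most (median −0.48), where 0.567% of all genes were. Scx was at 1.62 in Mertk KO P1 MI and 4.30 in Mertk KO P1 sham, and Lrrc15 at 3.40, against 22.1. These calls also rest on the 0.343 of Scx in WT P1 sham and on WT P1 MI libraries far apart in Lrrc15 (26.6 and 3.61). In the age test 3 were lower, Scx and Sfrp2 most (median −0.62), where 4.82% of all genes were. Scx was at 10.25 in WT 8 week MI and 7.38 in WT 8 week sham, so only its infarct-over-sham ratio was smaller than at P1. Sfrp2 was at 340 in WT 8 week MI and 990 in WT 8 week sham.

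Receptors and SMAD proteins carry the TGF-beta signal. None of 17 receptor and SMAD genes was called in WT P1 MI against WT P1 sham. Only Bambi, a decoy receptor of TGF-beta, was called in Mertk KO P1 MI, where it was at 8.09 CPM, against 29.8 and 39.6 in WT P1 MI (−1.99 ± 0.39, edgeR adjusted p = 1.78e-05). The list's median there was −0.31. Of the 17, 4 were lower in WT 8 week MI than in WT P1 MI, Bambi (6.41, against 29.8 and 39.6) and Smurf2 (21.8, against 64.3 and 51.4) most (median −0.85, where 12.1% of all genes were lower). In the age test Bambi and Smad7 were lower, where 4.82% of all genes were. Of 16 ligand, latency and activation genes, Tgfb3 alone was called in Mertk KO P1 MI, at 21.4, against 48.3 and 51.0 in WT P1 MI (list median −0.31). A count of 1 gene of 16 or 17 is near the share over all genes. Of these 16, 4 were higher and 4 lower in WT 8 week MI than in WT P1 MI, the lowest Ltbp4 (122, against 727 and 532.5) and Fbn2 (34.6, against 206 and 141), with a list median of −0.16. The shares over all genes were 9.75% and 12.1%. Thbs1, which activates latent TGF-beta, and Inhba, an activin subunit, were the 2 called higher in the age test (list median −0.64). Over all genes 1.85% were higher in that test. Thbs1 was at 1014 in WT 8 week MI and 124 in WT 8 week sham, and at 712 and 427 in WT P1 MI and 895.5 in WT P1 sham.

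Among 17 genes of collagen crosslinking and processing besides Lox, P4ha2 and P4ha3, subunits of prolyl hydroxylase, were higher in Mertk KO P1 MI relative to WT P1 MI. P4ha2 was at 145 CPM, against 69.4 and 49.4 (list median 0.52). Of the 17 crosslinking genes, 3 were higher in WT 8 week MI than in WT P1 MI, led by Loxl3 (187, against 33.1 and 22.5) and the collagen chaperone Serpinh1 (5936, against 1359 and 1298), with a list median of 0.63. Both counts are near the shares over all genes, 4.91% and 9.75%, and nothing is read from them for the list. Pcolce2 alone was called in the age test, with a lower ratio at 8 weeks. None was called in WT P1 MI against WT P1 sham. Of 12 mature scar genes, 11 were tested, and 3 were higher in WT P1 MI than in WT P1 sham: Clu (157 and 72.3, against 1.37), Fmod (12.7 and 16.4, against 1.54) and Ecrg4 (34.8 and 66.7, against 15.1), where 0.957% of all genes were. The list's median was 0.02. Clu was also higher in Mertk KO P1 MI relative to WT P1 MI (565, against 157 and 72.3), while Ogn was lower (246, against 911 and 902), with a list median of 0.04. Of the 11, 4 were higher in WT 8 week MI than in WT P1 MI, led by Cpxm2 (11.5, against 0.240 and 0.173) and Clu (1018, against 157 and 72.3), and 1 lower, while the list's median was −0.29. Clu was lower in the genotype test (list median −0.75), where 0.567% of all genes were. Clu and Ecrg4 were lower in the age test (list median −2.16), where 4.82% were. Lower here means a smaller infarct-over-sham ratio. Clu itself was higher in each infarct than in its sham, at 565 in Mertk KO P1 MI and 243.5 in Mertk KO P1 sham. It was at 1018 in WT 8 week MI and 185 in WT 8 week sham. Both tests rest on the 1.37 of WT P1 sham.

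Of 12 YAP and TEAD target genes besides Ccn2, Ankrd1 (37.2 CPM, against 8.40 and 16.2) and Ccn1 (645, against 232 in both libraries) were higher in WT 8 week MI than in WT P1 MI. This is near the 9.75% over all genes (list median 0.33). The other 4 tested comparisons called none. Of 16 resting fibroblast genes, 7 were lower and 2 higher in WT 8 week MI than in WT P1 MI (median −1.24). The shares over all genes were 12.1% and 9.75%. Smoc2 was at 47.4, against 458 and 317, while Cxcl14 was at 16.7, against 0 and 0.636. In the age test 7 of the 16 were lower (median −2.03), Cxcl14 and Hsd11b1 most: Hsd11b1, which activates glucocorticoid, was at 3.85 in WT 8 week MI and 134 in WT 8 week sham. Over all genes 4.82% were lower in that test. Of the 16, 3 were higher in Mertk KO P1 MI relative to WT P1 MI, Cxcl14 and Hsd11b1 most, and 1 lower (median −0.22). The shares over all genes were 4.91% and 4.31%. Of 16 cell cycle genes, 4 were higher in Mertk KO P1 MI relative to WT P1 MI, led by Tyms (129, against 42.3 and 55.6) and Birc5 (163.5, against 61.5 and 70.1), with a list median of 0.72. Over all genes 4.91% were higher there. Of these cell cycle genes, 3 were lower in WT 8 week MI than in WT P1 MI, led by Mki67 (19.2, against 78.0 and 72.2) and Cenpf (24.4, against 80.0 and 81.0). The list's median was 0.04 and 12.1% of all genes were lower, so nothing is read from this count for the list. In the age test 9 were higher (median 1.93), with Ccnb1 at 53.8 in WT 8 week MI and 2.12 in WT 8 week sham. Over all genes 1.85% were higher in the age test. No gene of the ligand, resting and cell cycle lists was called in WT P1 MI against WT P1 sham. In the genotype test none of the ligand, receptor, crosslinking, resting and cell cycle lists was called.

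Mural-like cells numbered 3 in WT 8 week MI and 106 in WT 8 week sham. Mertk KO P1 MI had 16 and Mertk KO P1 sham 18. WT P1 MI held 7 and 434, and WT P1 sham 16. Only 2 libraries had 20 or more, so no comparison between groups could be tested in this class. The pericyte markers summed to between 7033 and 16820 CPM in the 7 libraries, and those of smooth muscle to between 1194 and 6018.

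Acta2 and Tagln were far higher in mural-like than in fibroblast-like cells of the same library, except for the 3 cells of WT 8 week MI. Acta2 was at 9784 CPM in WT 8 week sham. At P1 Acta2 was at 9470 in Mertk KO P1 MI, 16080 in Mertk KO P1 sham, with 6332 and 9794 in WT P1 MI and 8390 in WT P1 sham. In WT 8 week MI it was at 1989, from 10 UMIs, with a 95% interval from 954 to 3658. Tagln ranged from 3604 to 7896 in the 6 libraries with more than 3 cells. In Mertk KO P1 MI the Acta2 sum was below that of Mertk KO P1 sham (log2 ratio −0.76, counting interval −0.90 to −0.63) and so was that of Tagln (−0.35, −0.53 to −0.18). With no doublet removal these ratios were −1.68 and −1.54. They rest on 16 cells of Mertk KO P1 MI and 18 of Mertk KO P1 sham. Smooth muscle markers summed to 3702 CPM in Mertk KO P1 MI and 6018 in Mertk KO P1 sham, and pericyte markers to 8437 and 7033. After thinning, Acta2 was detected in 92.9% of Mertk KO P1 MI and 94.1% of Mertk KO P1 sham mural-like cells. The part of this mix of cells in the ratios was not tested. In WT 8 week sham only 35.8% of mural-like cells had an Acta2 UMI, and the 10% of cells with most held 85.0% of all Acta2 UMIs. In WT P1 MI replicate 2 85.7% had one, and the top 10% held 48.7%.

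Of the other members, Postn, Ccn2 and Lox were present in mural-like cells, and the other 5 had 0 to 11 UMIs in each library. Postn was at 348 CPM in WT 8 week sham. At P1 Postn was at 374 in Mertk KO P1 MI, 110 in Mertk KO P1 sham, with 1335 and 763 in WT P1 MI and 191 in WT P1 sham. Both WT P1 MI libraries were above WT P1 sham, where the value rested on 26 UMIs in 16 cells. Ccn2 was at 256 in WT 8 week sham. At P1 Ccn2 was at 356 in Mertk KO P1 MI, 149 in Mertk KO P1 sham, with 172 and 191 in WT P1 MI and 147 in WT P1 sham. Lox was at 14.4 and 74.4 in WT P1 MI, against 279 in WT P1 sham, from 1, 202 and 38 UMIs. The log2 ratio of WT P1 MI replicate 2 over WT P1 sham was −1.92 (counting interval −2.41 to −1.37). In each of the other libraries Lox rested on 14 UMIs or fewer. Cilp had no UMI in any library. Comp had 1, Meox1 4, Tnc 9 and Cthrc1 11 UMIs in the 434 cells of WT P1 MI replicate 2.

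**Figure D4:**
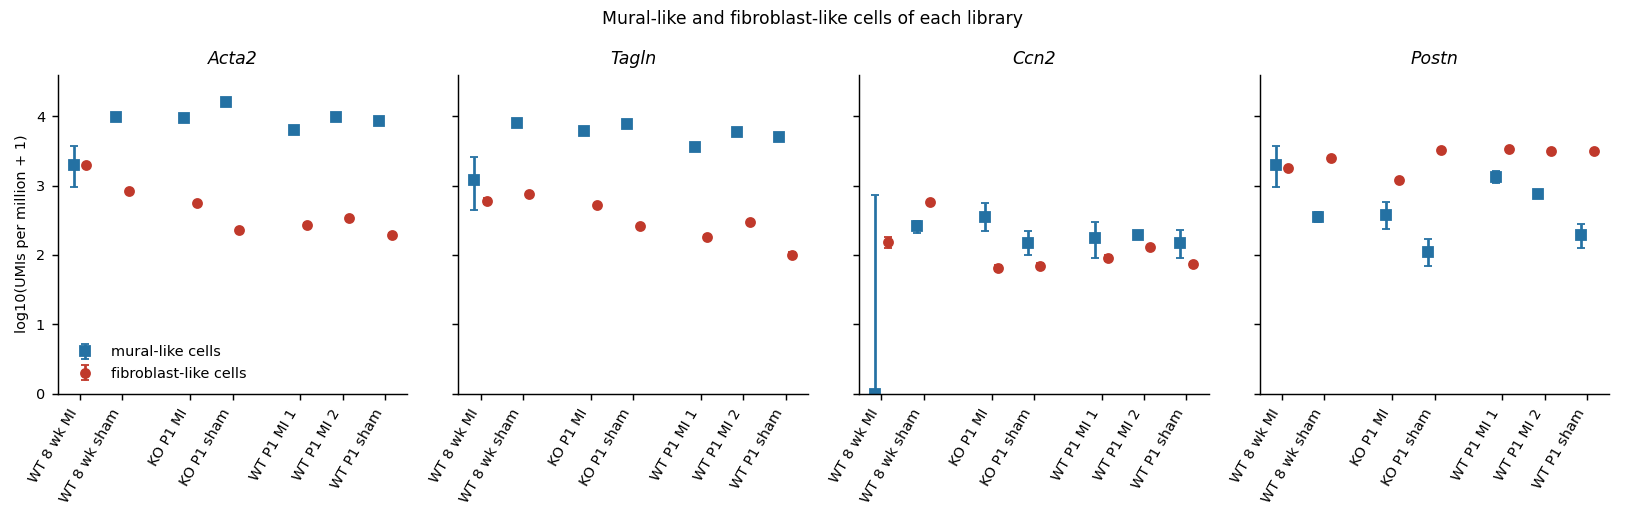
Acta2, Tagln, Ccn2 and Postn as log10(CPM + 1) (y axis) in mural-like (blue squares) and fibroblast-like cells (red circles) of each library (x axis), with exact 95% Poisson intervals. Mural-like cells exceed fibroblast-like cells in Acta2 and Tagln in 6 of 7 libraries without overlap of the intervals; WT 8 week MI has 3 mural-like cells.

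Across all cell classes, means over libraries with at least 20 cells of a class placed the members in different cells. Postn, Cthrc1, Tnc and Cilp were highest in fibroblast-like cells among the named classes, at 2611, 854, 135 and 74.8 CPM, and so was Lox (317, against 156 in epicardial-like cells). Acta2 (9789) and Tagln (6871) were highest in mural-like cells. Acta2 averaged 623 in fibroblast-like cells (191 to 1945 over 7 libraries) and 750 in cardiomyocyte-like cells (26.5 to 1228 over 4 libraries), and these ranges overlapped. Ccn2 was at 223 in mural-like and 165 in fibroblast-like cells, and the fibroblast-like libraries, from 64.7 to 575, spanned that difference. Meox1 was higher in endothelial-like (134) than in fibroblast-like cells (78.3). Comp averaged 22.8 in fibroblast-like cells, from 122 in WT 8 week MI and 34.2 in WT 8 week sham, with 0 to 1.53 in the 5 P1 libraries. In endothelial-like cells Comp averaged 15.3, with a range of 8.07 to 34.2, and in each P1 library it was higher there than in fibroblast-like cells.

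Over 9 library and class points with at least 20 cells, the log2 level most like that of Postn among 3915 genes was Dact1 (Pearson r = 0.982), followed by Sox9, Col15a1, Pam and Qpct (0.974). For Acta2 it was Arhgdib (0.986), followed by Pnkd, Myl6, Tinagl1 and Des (0.980). The points share libraries, and 7 are fibroblast-like and 2 mural-like.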

How the data were processed

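UMI counts of every gene in every barcode, not normalized, were deposited; the authors had run Cell Ranger against GRCm38 (mm10), per the file headers and the submitters' processing notes. Version 4.0.0 is named in the headers of 5 libraries and in the series text, and 6.1.0 in those of WT 8 week sham and of replicate 2 of WT P1 MI. Totals ranged from 7707724 to 130847843 UMIs per library. Kept barcodes had 500 or more UMIs, 300 or more genes and mitochondrial UMIs of 15% or less. The cells with the highest Scrublet scores, 0.8% per 1000 barcodes, were removed as doublets, since its own threshold marked almost none in some libraries. Cells were clustered in scanpy 1.11.5 (2000 variable genes without the members and listed genes, 30 components, 15 neighbours, Leiden resolution 1, leidenalg 0.10.2). Clusters were named from marker lists. Clusters that scored for more than 1 lineage were divided again at resolution 0.5 or set aside, by a rule written after the data were seen.

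Counts were summed per library and class and tested with edgeR 4.0.16 (quasi-likelihood, TMM, filterByExpr) in 1 fit of 7 libraries. Benjamini-Hochberg adjusted p-values run over all 13578 genes of each of 5 contrasts. A call needed an adjusted p below 0.05 together with a log2 fold change of 1 or more in size. SEs are approximate, from the F statistic. Only WT P1 MI has replicates, whose labels do not say that they came from separate animals. The p-values therefore rest only on how far these 2 samples differ, possibly for technical reasons, and lone libraries are assumed to vary like them. The 2 libraries were at least 2-fold apart in 761 of 12258 genes and are not 1 library deposited again. TMM moved the median log2 fold change of all genes by 0.04 (WT P1 MI against sham), 0.13 (Mertk KO P1 MI relative to WT P1 MI), −0.05 (WT 8 week MI against WT P1 MI), 0.19 (genotype test) and −0.17 (age test). Untested log2 ratios add 0.5 UMIs per library. Intervals are exact 95% Poisson or binomial and, like the limit of 3 counts for a count of 0, cover counting error only. The test was also run on simulated data, with no outcome given here, and nothing is drawn from that run. How far lone libraries vary cannot be read from these data, since they have no replicates.

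The members and lists were chosen with earlier results of these data known. Named genes are the 10 members, up to 3 called genes of largest change per list in WT P1 MI against sham and up to 2 in each other comparison, and the 5 genes most like Postn and Acta2. A gene that this rule would name is not reported here. Alternatives were other scaling, tests, filters, doublet handling and cell definitions, and leaving out each WT P1 MI library.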

Additional observations from a re-analysis of the deposited data

Results flagged for a closer look

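Cilp differed between genotypes in how infarction went with its level: the infarct-over-sham ratio was lower in Mertk KO than in WT at P1 by −4.19 on the log2 scale (edgeR adjusted p = 5.52e-07). It was at 1.78 CPM in Mertk KO P1 MI and 19.8 in Mertk KO P1 sham, and at 49.0 and 51.4 in WT P1 MI and 26.6 in WT P1 sham. The Mertk KO P1 MI value rests on 11 UMIs in 506 cells.

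Ccn2 differed between ages, with an infarct-over-sham ratio lower at 8 weeks than at P1 by −2.71 on the log2 scale (edgeR adjusted p = 0.00174). It was at 152.5 CPM in WT 8 week MI and 575 in WT 8 week sham, and at 90.5 and 129 in WT P1 MI and 71.8 in WT P1 sham.

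Cilp differed between ages as well, by −1.84 (edgeR adjusted p = 0.0222), with 140 CPM in WT 8 week MI and 235 in WT 8 week sham. With each cell of the class given equal weight, Cilp was instead higher in WT 8 week MI than in WT 8 week sham. The call was lost without doublet removal (edgeR adjusted p = 0.116), with DESeq2 (adjusted p = 0.146) and without cells holding an epicardial marker UMI (edgeR adjusted p = 0.111). In Pdgfra-positive cells this difference was −4.10 (edgeR adjusted p = 2.89e-07), where the WT 8 week MI value rests on 8 UMIs in 58 cells.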

How the results depend on the processing

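Called genes in fibroblast-like cells numbered 151 in WT P1 MI against sham, 1252 in Mertk KO P1 MI relative to WT P1 MI, 2970 in WT 8 week MI against WT P1 MI, 109 in the genotype test and 905 in the age test. DESeq2 called 16, 184, 1258, 11 and 203 in the same order. Without doublet removal edgeR called 22 in WT P1 MI against sham, 549 in Mertk KO P1 MI relative to WT P1 MI, 23 in the genotype test and 241 in the age test. With the mixed cluster added it called 2101 in Mertk KO P1 MI relative to WT P1 MI and 182 in the genotype test, where 53.3% were higher, against 29.4%. Without TMM 40.4% of the Mertk KO P1 MI calls were higher, against 53.3%. In mural-like cells both Acta2 and Tagln, 2 genes, were at least 2-fold apart between Mertk KO P1 MI and its sham without doublet removal. Signs turned for Comp in Mertk KO P1 MI relative to WT P1 MI (−1.12 in Pdgfra-positive cells, −0.90 without cells holding Ptprc, Pecam1 or Cdh5), and for Cilp (−0.88) and Ccn2 (−0.42) in Pdgfra-positive cells for WT 8 week MI against WT P1 MI. Within the age test they turned for Cthrc1 (0.053 without TMM, 0.032 without doublet removal, 0.21 without epicardial UMIs) and Lox (0.04 with DESeq2, 0.10 without TMM, 0.06 without doublet removal, 0.10 without epicardial UMIs). Cthrc1 turned to −0.15 in Mertk KO P1 MI against its sham with the mixed cluster. The cause was not tested. Of 550 tested alternatives of single members, 512 kept direction and side of the threshold. Among alternatives of the untested ratios of infarct over its own sham, 128 stayed within the counting interval. Another 43 moved outside it and 1 turned sign. Leaving out a WT P1 MI library leaves no replicates, so those 100 values had no test. No paired analysis was possible because only WT P1 MI has numbered replicates, so groups share fewer than 2 numbers. Few UMIs limit the precision of Comp in the P1 libraries, of Cilp in Mertk KO P1 MI (11 UMIs) and of all members in the 3 mural-like cells of WT 8 week MI. Among list genes, Scx in WT P1 sham (0.343 CPM) and Cpxm2 in WT P1 MI (0.240 and 0.173 CPM) were low as well.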

Other observations

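Among fibroblast-like cells, clusters 14 (led by Serpina3n and Serpina3f) and 34 (led by Cxcl13 and Enpp2) carried the members unevenly. Cluster 14 had little of the contractile genes, with Acta2 at 50.1 CPM in 113 Mertk KO P1 MI cells, 12.6 in 54 Mertk KO P1 sham cells and 27.9 in 32 cells of WT P1 MI replicate 2. Cluster 34 held 51 Mertk KO P1 sham cells, with Acta2 at 238, Lox at 408 and Tnc at 213, and 10 and 94 cells of the WT P1 MI libraries, with Acta2 at 889 and 290. WT P1 sham had no cell in clusters 14, 32 and 34, where Mertk KO P1 sham had 54, 8 and 51. WT P1 MI replicate 1 had none in clusters 14 and 32.

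Cluster 24, which held 181 WT 8 week MI and 337 WT 8 week sham cells, also held 17 cells of WT P1 MI replicate 2 (0.574% of the class), in which Acta2 stood at 2298, Cthrc1 at 1709, Tnc at 450 and Timp1 at 6733 CPM. In the 181 WT 8 week MI cells of that cluster they stood at 1963, 2268, 422 and 4085, and in the 337 WT 8 week sham cells at 1662, 3388, 179 and 1220. Comp was at 13.4 in the 17 WT P1 MI cells, 123 in the WT 8 week MI cells and 26.1 in the WT 8 week sham cells.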
